A study of Mus musculus with 16 samples.

Results

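Zfp143, Slc19a2, Plcxd2, Stam2, Klhl17, Cnbp, Cbx6, Tmco4 and Zfp422 are 9 of the 46320 genes in a count table from mouse macrophages. They were chosen because an earlier fit of these data called them for thrombin alone against vehicle, and because they are not zinc transport genes. The choice therefore rests on the thrombin and vehicle libraries, and the values of those libraries are given as a description with no test. The 9 are not all such genes: the fit used here called 36 others for thrombin, among them Cul3, which is not a zinc transport gene. How the 9 were picked among such genes is not stated in the sources used here. All 9 passed the filter on low counts that left 15610 genes. Macrophages were grown from the bone marrow of C57BL6/J mice over 7 days with L929-conditioned medium, which supplies the growth factor M-CSF. After plating at 400000 cells and 4 hours of starvation in 0.5% serum, they received one of 4 treatments for 4 hours. These were thrombin, its PBS vehicle, platelets activated by thrombin, and resting platelets, with 4 poly(A) libraries in each group and 16 in all. Platelets came from the blood of C57BL6/J mice. The thrombin dose has 2 records: 0.01 U/mL in the protocol, for thrombin alone and for activating platelets, and 0.1 U/mL in the labels of the thrombin libraries.

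Thrombin is the last protease of the clotting cascade, and it signals to cells by cutting protease-activated receptors. Several of the genes described here encode nucleic acid-binding proteins: Zfp143 and Zfp422 are zinc finger proteins, Cnbp holds zinc knuckles, and Cbx6 belongs to the Polycomb repressive system, which keeps genes silent through modified histones. The others work in vitamin uptake (Slc19a2), endosomal sorting of ubiquitin-tagged receptors (Stam2), and actin or ubiquitin ligase scaffolds (Klhl17), or are known mainly by their domains (Plcxd2, Tmco4).

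Library totals were 23.1 to 26.7 M counts with thrombin, 22.6 to 27.7 M with vehicle, 28.0 to 30.6 M with activated platelets and 24.9 to 26.4 M with resting platelets. The 10 macrophage markers examined were present in every library, the lowest being Fcgr1, an Fc receptor, at 121 CPM (counts scaled to a library total of 1000000). The number 1 libraries stood apart in origin: Ddx3y, a Y-linked gene, was at 85.1 to 93.2 CPM in them and at 0 to 0.27 CPM in numbers 2 to 4. Xist went the other way, at 0.0716 to 1.06 CPM in number 1 and 1055 to 1292 CPM in numbers 2 to 4. This is the pattern of male cells in number 1 and female cells in numbers 2 to 4, read from these genes and not from a label. Without the number 1 libraries of every group, 5 of the 9 genes were called for activated against resting platelets, instead of 8, while 6.24% of all genes were called in that fit. Klhl17, Cbx6 and Stam2 lost the call, at log2 differences of -0.30, -0.30 and -0.09. No label states whether the 4 libraries of a group are separate animals or cultures, and the p-values cover the spread among these libraries, part of which may be technical. CPM use library totals after TMM scaling.

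The promoters of 5 genes, picked after their values and matches were seen, are shown because these genes varied together over the libraries. Zfp143 varied with Slc19a2, and Tmco4 with both Cbx6 and Zfp422, a likeness that the choice of the 9 genes favours. Each window runs from 250 bases before to 50 bases after a start site of RefSeq, on GRCm38.p6, which is not the build of the count table. Capitals mark letters searched on both strands. These are the motif named CCAAT box, the guanine-rich GC box with the letters GGGCGG, and the core of the metal response element, written TGCACNC in its usual form and written TGCGCNC in its alternative form. The letters ACTACA, which open a core of the Zfp143 binding site, were searched too. Zfp143, chr7:110061452-110061751, plus strand; Slc19a2, chr1:164248796-164249095, plus strand; Tmco4, chr4:138972655-138972954, plus strand, the later of its start sites; Cbx6, chr15:79834284-79834583, minus strand; and Zfp422, chr6:116628652-116628951, minus strand, read as follows.
Zfp143: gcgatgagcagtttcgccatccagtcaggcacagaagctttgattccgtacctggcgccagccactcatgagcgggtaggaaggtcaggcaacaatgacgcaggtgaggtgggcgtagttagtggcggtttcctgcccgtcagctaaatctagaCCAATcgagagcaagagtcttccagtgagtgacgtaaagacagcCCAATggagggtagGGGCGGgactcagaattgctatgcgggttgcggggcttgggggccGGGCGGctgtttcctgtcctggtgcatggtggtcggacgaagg
Slc19a2: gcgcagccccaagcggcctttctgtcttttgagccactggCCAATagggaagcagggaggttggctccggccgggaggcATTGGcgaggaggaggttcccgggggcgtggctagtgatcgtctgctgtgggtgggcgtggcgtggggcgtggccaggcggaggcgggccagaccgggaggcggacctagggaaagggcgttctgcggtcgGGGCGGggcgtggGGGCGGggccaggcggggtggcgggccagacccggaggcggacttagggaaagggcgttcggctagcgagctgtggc
Tmco4: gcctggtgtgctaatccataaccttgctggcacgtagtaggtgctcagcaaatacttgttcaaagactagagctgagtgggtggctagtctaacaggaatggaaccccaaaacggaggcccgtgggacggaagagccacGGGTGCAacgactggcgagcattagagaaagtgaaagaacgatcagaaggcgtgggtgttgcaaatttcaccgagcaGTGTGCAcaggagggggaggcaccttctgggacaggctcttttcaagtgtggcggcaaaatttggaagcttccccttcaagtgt
Cbx6: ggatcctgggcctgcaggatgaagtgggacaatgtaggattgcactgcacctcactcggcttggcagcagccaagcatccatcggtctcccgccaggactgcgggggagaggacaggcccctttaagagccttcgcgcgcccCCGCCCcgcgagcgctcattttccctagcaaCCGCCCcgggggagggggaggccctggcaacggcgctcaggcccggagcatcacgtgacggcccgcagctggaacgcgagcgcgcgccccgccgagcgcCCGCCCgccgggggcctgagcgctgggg
Zfp422: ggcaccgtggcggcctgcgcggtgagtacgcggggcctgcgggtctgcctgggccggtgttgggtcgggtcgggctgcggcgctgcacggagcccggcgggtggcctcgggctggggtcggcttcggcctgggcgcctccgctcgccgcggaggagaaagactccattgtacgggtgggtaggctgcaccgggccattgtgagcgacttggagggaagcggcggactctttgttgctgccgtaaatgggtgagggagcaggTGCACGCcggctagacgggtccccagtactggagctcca
The Zfp143 and Slc19a2 windows each held CCAAT 2 times and GGGCGG 2 times, and neither held a metal response element core. The Tmco4 window held TGCACNC 2 times, and the window of its earlier start site, not printed, held it 0 times. The Zfp422 window held it 1 time, and the Cbx6 window held GGGCGG 3 times and no metal response element core. Klhl17 also varied with Tmco4 and Cbx6, and its window, not printed, held GGGCGG 3 times and no metal response element core. Over all start sites of the 9 genes, a metal response element core was present in 3 of 9 (Tmco4, Zfp422 and, as TGCGCNC, Stam2), against 28.2% of genes in the promoter table. Counted in the same way per gene, CCAAT was present in 5 of 9 genes and in 41.1% of all genes, and GGGCGG in 7 of 9 and in 38.2%. ACTACA was present in 1 of 9 genes (Stam2) and in 11.8% of all genes. The promoter table holds more genes than passed the filter on low counts, which all 9 did, so these shares are over unlike sets. Shares among the tested genes alone were not computed. These matches describe letters in a window and are not binding sites.

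With thrombin, 4 of the 9 genes were higher than with vehicle (Zfp143, Slc19a2, Plcxd2 and Stam2) and 5 were lower (Klhl17, Cnbp, Cbx6, Tmco4 and Zfp422). The differences were small, between 1.15-fold and 1.57-fold higher and between 1.28-fold and 1.42-fold lower. Thrombin and vehicle libraries did not overlap for any of the 9, a pattern that the choice of the genes favours. Over all tested genes, 45 were called for thrombin against vehicle by edgeR, which is 0.288% (0.0897% higher and 0.199% lower), and 6.68% had non-overlapping libraries. Of the 9 genes, the nearest to the threshold were Zfp422 and Cbx6, and the 36 other called genes were not considered for this. Zfp422 was at 14.4 CPM with thrombin and 18.5 CPM with vehicle, and Cbx6 at 27.1 CPM with thrombin and 37.4 CPM with vehicle. Just outside, among all tested genes above a floor on CPM, were Trmt10a and 2510039O18Rik. Trmt10a was at 7.65 CPM with thrombin and 5.26 CPM with vehicle, and 2510039O18Rik at 97.5 CPM with thrombin and 109 CPM with vehicle.

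Activated against resting platelets is a comparison that shares no library with the one used for the choice. It asks whether the genes also differ where platelets are present. Thrombin was used to activate the platelets, so thrombin itself and platelet activation cannot be told apart in it. Libraries of the same number were taken as paired across groups, so this comparison is not fully independent of the choice. By edgeR, with p adjusted over all 15610 genes, 8 of the 9 were called, 2 higher and 6 lower. Over all genes 15.8% were called, 7.34% higher and 8.49% lower. The spread was estimated with the thrombin and vehicle libraries included, which chose the genes. Fitted on the platelet libraries alone, 6 of the 9 were called, against 13.7% of all genes, with Cbx6 (adjusted p 0.0629) and Stam2 (0.103) not called. In 7 of the 9 (77.8%) the sign was that of thrombin alone, against 63.9% of the 36 other genes called for thrombin and 45.4% of all genes. All 7 were called, whereas among the 36 other genes 10 were called with the same sign (27.8%), 5 with the opposite sign and 21 not at all. The 9 were chosen with earlier results of these data known, which may have included the platelet comparisons. The contrast with the 36 other genes is therefore a description and was not tested. Over all genes, 6.67% were called with the sign they had for thrombin. Stam2 was called in the opposite direction, and Plcxd2 was not called. For 6 of the 9, activated and resting libraries did not overlap, against 19.5% of all genes. Within replicate numbers, 7 genes kept one sign in 4 of 4 numbers, while Stam2 and Plcxd2 were lower with activated platelets in 3 of 4. Whether the thrombin and platelet comparisons differ in size was not tested.

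**Figure D1:**
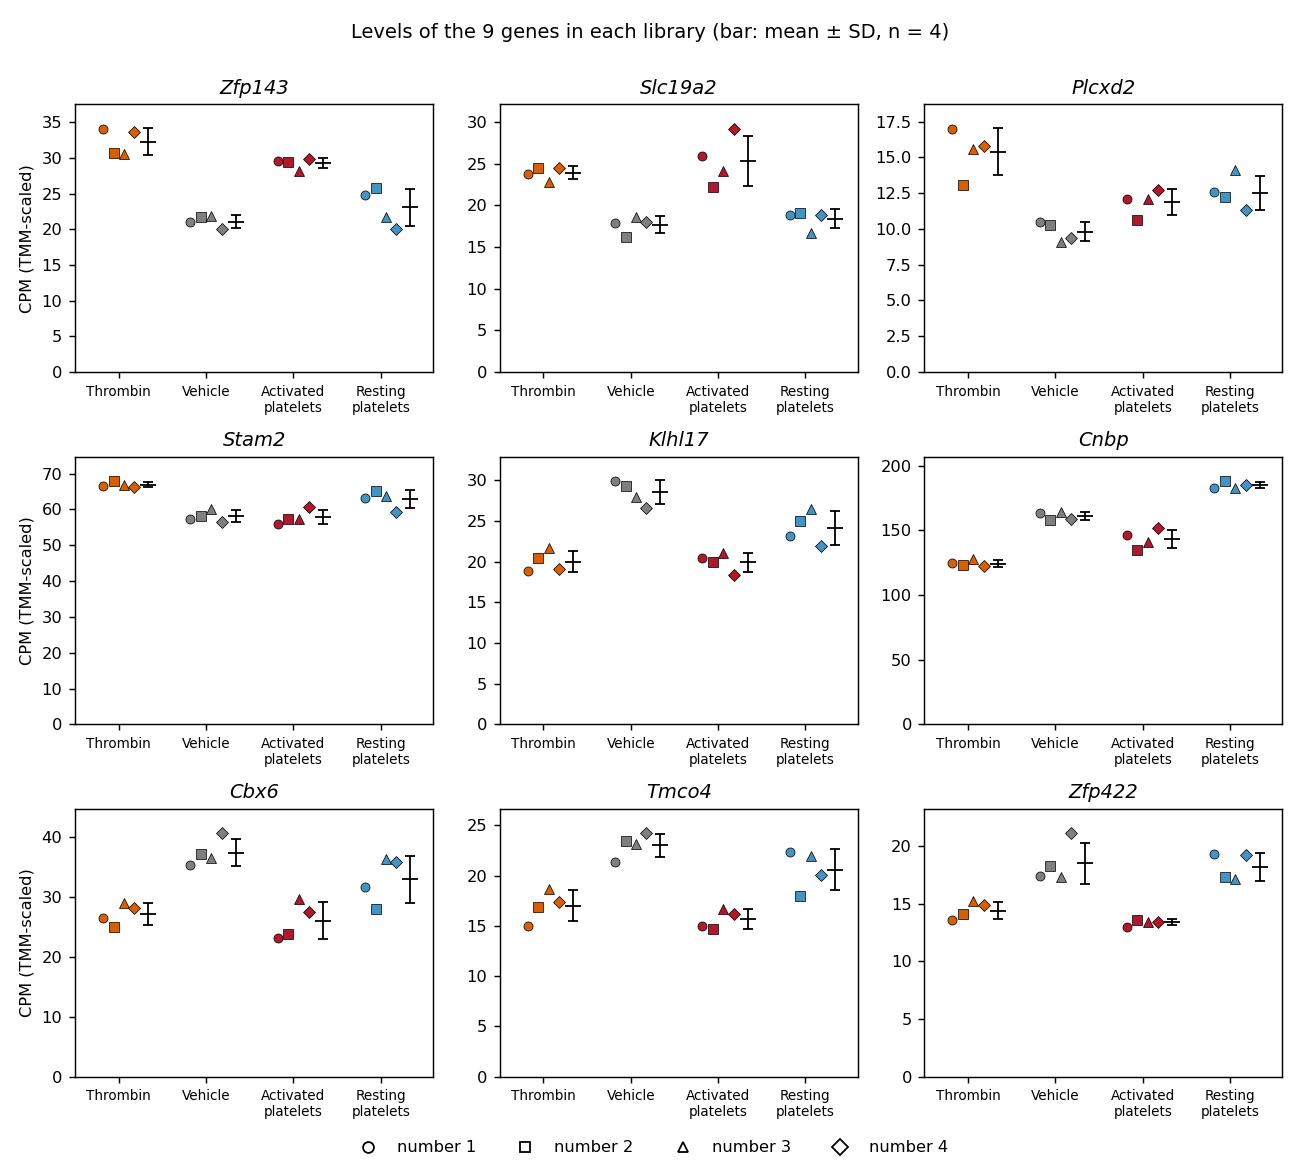
TMM-scaled CPM of each of the 9 genes in every library (symbols for replicate numbers 1 to 4) with thrombin, vehicle, activated platelets and resting platelets; the bar beside each group is the mean ± SD (n = 4). Zfp143 and Slc19a2 lie higher with thrombin and with activated platelets than with vehicle and resting platelets, and Cnbp, Tmco4 and Zfp422 have lower means.

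Zfp143 encodes a zinc finger transcription factor that binds promoters of many housekeeping genes and of small nuclear RNA genes (NCBI Gene 20841; GRCm39 chr7:109660896-109694603, plus strand). It was at 34.1, 30.7, 30.6 and 33.7 CPM with thrombin (libraries 1 to 4), against 21.0, 21.7, 21.9 and 20.0 CPM with vehicle. The activated platelet libraries were at 29.6, 29.5, 28.2 and 29.8 CPM and the resting platelet libraries at 24.8, 25.8, 21.8 and 20.1 CPM. All thrombin libraries lay above all vehicle libraries, and all activated above all resting ones. The log2 difference was 0.61 ± 0.07 (SE) for thrombin minus vehicle and 0.34 ± 0.07 for activated minus resting platelets, with a 95% interval of 0.20 to 0.48 and an edgeR adjusted p of 0.00277.

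Cnbp encodes a zinc knuckle protein that binds single-stranded nucleic acids (NCBI Gene 12785; GRCm39 chr6:87819597-87828088, minus strand). Its libraries were at 125, 123, 128 and 122 CPM with thrombin and 163, 158, 164 and 159 CPM with vehicle. With activated platelets they were at 146, 135, 141 and 152 CPM, against 183, 188, 183 and 185 CPM with resting platelets. Every thrombin library was below every vehicle library and every activated library was below every resting one. On the log2 scale the difference was -0.37 ± 0.04 for thrombin minus vehicle and -0.37 ± 0.04 for activated minus resting platelets (95% interval -0.44 to -0.29, edgeR adjusted p 5.02e-06). Resting platelets were 0.20 higher than vehicle on the log2 scale, and activated platelets minus vehicle was -0.17.

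Cbx6 encodes a chromobox subunit of Polycomb repressive complex PRC1 (NCBI Gene 494448; GRCm39 chr15:79708099-79718534, minus strand). It was at 26.4, 24.9, 29.0 and 28.1 CPM with thrombin and 35.4, 37.2, 36.5 and 40.6 CPM with vehicle. The activated platelet libraries were at 23.2, 23.8, 29.7 and 27.4 CPM, and the resting ones at 31.7, 27.9, 36.3 and 35.9 CPM. Activated library 3 lay above resting library 2, so those groups overlapped. Its log2 difference was -0.47 ± 0.09 for thrombin minus vehicle and -0.34 ± 0.09 for activated minus resting platelets (95% interval -0.53 to -0.15, edgeR adjusted p 0.0172). The call was lost without activated library 1 (adjusted p 0.0642) or 2 (0.0519), without resting library 3 (0.0594) or 4 (0.0558), and without number 1 (0.13) or 4 (0.0835) in all groups. Cbx6 lies within Npcd on the same strand, and 12 of its 16 library values were not whole numbers, so its reads may be shared. Values were also not whole in some libraries of Zfp422 (9), Klhl17 (8), Cnbp (5), Stam2 (4) and Slc19a2 (1).

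Zfp422 encodes a zinc finger protein of the Kruppel type (NCBI Gene 67255; GRCm39 chr6:116600977-116605960, minus strand). Its libraries were at 13.6, 14.1, 15.2 and 14.9 CPM with thrombin and 17.4, 18.3, 17.3 and 21.1 CPM with vehicle. With activated platelets they were at 13.0, 13.6, 13.4 and 13.4 CPM, against 19.3, 17.3, 17.1 and 19.2 CPM with resting platelets. Neither pair of groups overlapped. This gave a log2 difference of -0.36 ± 0.07 for thrombin minus vehicle and -0.45 ± 0.07 for activated minus resting platelets (95% interval -0.59 to -0.31, edgeR adjusted p 0.000295).

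Slc19a2 encodes a high-affinity thiamine transporter of the plasma membrane, whose loss causes thiamine-responsive megaloblastic anaemia in humans (NCBI Gene 116914; GRCm39 chr1:164076615-164092954, plus strand). It was at 23.8, 24.5, 22.8 and 24.5 CPM with thrombin and 17.9, 16.2, 18.6 and 18.0 CPM with vehicle. With activated platelets it was at 25.9, 22.2, 24.1 and 29.2 CPM, against 18.9, 19.1, 16.7 and 18.9 CPM with resting platelets. Both pairs of groups were apart, and resting library 3 was the lowest of its group. The log2 difference was 0.43 ± 0.07 for thrombin minus vehicle and 0.46 ± 0.07 for activated minus resting platelets (95% interval 0.30 to 0.62, edgeR adjusted p 0.000531).

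Tmco4 encodes a protein with transmembrane and coiled-coil domains (NCBI Gene 77056; GRCm39 chr4:138699588-138786484, plus strand). It was at 15.0, 16.9, 18.7 and 17.4 CPM with thrombin and 21.4, 23.4, 23.1 and 24.2 CPM with vehicle. With activated platelets it was at 15.0, 14.7, 16.7 and 16.2 CPM, against 22.3, 18.0, 21.9 and 20.1 CPM with resting platelets. All libraries with thrombin or activated platelets lay below those of their comparison groups. On the log2 scale the difference was -0.44 ± 0.08 for thrombin minus vehicle and -0.40 ± 0.08 for activated minus resting platelets (95% interval -0.56 to -0.23, edgeR adjusted p 0.00242).

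Klhl17 encodes a BTB-kelch protein, a family that binds actin and links substrates to CUL3 ubiquitin ligases (NCBI Gene 231003; GRCm39 chr4:156313501-156319314, minus strand). It was at 18.8, 20.4, 21.7 and 19.1 CPM with thrombin and 29.9, 29.3, 28.0 and 26.6 CPM with vehicle. With activated platelets it was at 20.4, 20.0, 21.1 and 18.4 CPM, against 23.1, 25.0, 26.5 and 21.9 CPM with resting platelets. Neither pair of groups overlapped. Its log2 difference was -0.51 ± 0.07 for thrombin minus vehicle and -0.28 ± 0.07 for activated minus resting platelets (95% interval -0.42 to -0.13, edgeR adjusted p 0.0105). The call was lost without number 1 in all groups (adjusted p 0.0531) or number 2 (0.0677). On the same strand, Klhl17 overlaps Mir7658 by 57 bases. Klhl17 overlaps Noc2l on the opposite strand by 203 bases, and Noc2l, at 93.9 CPM, differed by -0.07 for thrombin minus vehicle (edgeR adjusted p 0.472) and by -0.02 for activated minus resting platelets (0.823).

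Stam2 encodes a subunit of ESCRT-0, the complex that gathers ubiquitin-tagged cargo on endosomes (NCBI Gene 56324; GRCm39 chr2:52582218-52632212, minus strand). It was at 66.6, 67.9, 66.9 and 66.2 CPM with thrombin and 57.4, 58.2, 60.2 and 56.5 CPM with vehicle. With activated platelets it was at 55.9, 57.4, 57.4 and 60.7 CPM, against 63.2, 65.1, 63.8 and 59.3 CPM with resting platelets. Thrombin libraries lay above vehicle libraries, and activated library 4 lay above resting library 4. This gave a log2 difference of 0.20 ± 0.04 for thrombin minus vehicle and -0.12 ± 0.04 for activated minus resting platelets (95% interval -0.20 to -0.04, edgeR adjusted p 0.0367). The platelet call was lost without activated library 1 (0.118), 2 (0.0781) or 3 (0.0775), without resting library 1 (0.0841), 2 (0.104) or 3 (0.0896), and without number 1 (0.298), 2 (0.201) or 3 (0.174) in all groups. The sign stayed negative throughout. Stam2 overlaps Gm46741, at a mean of 5.06 CPM, on the same strand by 4566 bases, so its reads may be shared too.

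Plcxd2 encodes a protein with the X domain of phosphatidylinositol-specific phospholipase C (NCBI Gene 433022; GRCm39 chr16:45779624-45830776, minus strand). It was at 17.0, 13.1, 15.6 and 15.8 CPM with thrombin and 10.5, 10.3, 9.08 and 9.38 CPM with vehicle. With activated platelets it was at 12.1, 10.6, 12.1 and 12.7 CPM, against 12.6, 12.2, 14.1 and 11.3 CPM with resting platelets. The platelet groups overlapped, and all libraries of both lay above those of vehicle. The log2 difference was 0.65 ± 0.09 for thrombin minus vehicle, 0.35 ± 0.09 for resting platelets minus vehicle and -0.08 ± 0.09 for activated minus resting platelets (95% interval -0.27 to 0.11, edgeR adjusted p 0.625).

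**Figure D2:**
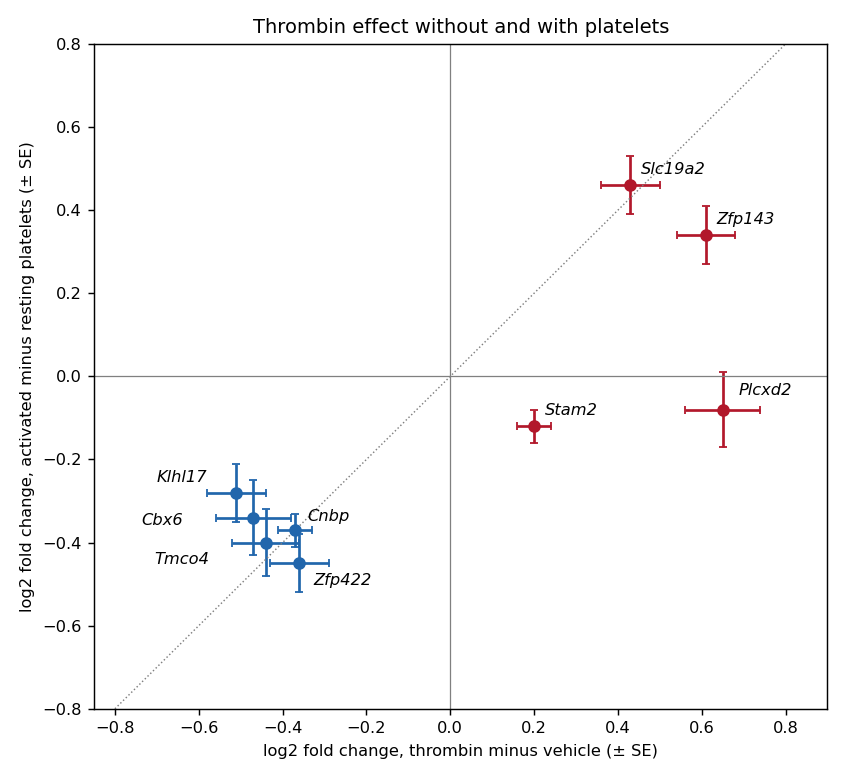
Log2 fold change of each gene for activated minus resting platelets (vertical axis) against that for thrombin minus vehicle (horizontal axis), with SE on both; the dotted line marks equal values. Cnbp lies on the line at -0.37 in both, Stam2 and Plcxd2 lie below 0 on the vertical axis and above 0 on the horizontal one. In the comparison of the vertical axis, thrombin and platelet activation cannot be told apart.

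With resting platelets, most of the genes lay close to their vehicle level. The log2 differences, given without a test because vehicle libraries entered the choice, were 0.35 for Plcxd2, 0.20 for Cnbp and -0.24 for Klhl17. Resting platelet and vehicle libraries did not overlap for these genes. The share of all genes without overlap was not computed for this comparison. For the other 6 genes the differences lay between -0.18 (Cbx6) and 0.13 (Zfp143). Activated platelets minus vehicle gave 0.52 for Slc19a2 and 0.47 for Zfp143. The same difference was -0.55 for Tmco4, -0.52 for Cbx6, -0.51 for Klhl17 and -0.47 for Zfp422. Stam2 was at -0.01 in that comparison.

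Per kilobase of merged exon in vehicle libraries, Cnbp was highest at 73.9 ± 1.27 CPM (SD, n = 4), followed by Stam2 at 13.3 ± 0.364 and Klhl17 at 9.44 ± 0.488. Cbx6 (6.86 ± 0.415) and Zfp143 (6.81 ± 0.275) differed by less than their SD, as did Zfp422 (5.0 ± 0.48) and Slc19a2 (4.95 ± 0.283). Tmco4 followed at 3.57 ± 0.18 and Plcxd2 was lowest at 1.34 ± 0.0942 CPM per kilobase.

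Among the nearest neighbours of the 9 genes, 4 were called for activated against resting platelets by edgeR. Over all tested genes 15.8% were called in that comparison, and some neighbours fell below the filter on low counts. The nearest neighbours that were tested and not called were Wee1, Ipo7, Ccdc181, Phldb2, Plekhn1, Copg1, D730005E14Rik and Nptxr. The 4 are given as a description. Beside Zfp422, which was lower, Rassf4 had a log2 difference of -0.39 (adjusted p 0.0198), and beside Slc19a2, which was higher, F5, a coagulation factor gene, had 1.99 (2.5e-06). Beside Cnbp and Stam2, which were lower, Isy1 had 0.35 (0.00383) and Fmnl2 had 0.30 (0.00819). For thrombin minus vehicle, Rassf4 was at -0.05 (0.938), F5 at 0.11 (0.912), Isy1 at 0.10 (0.684) and Fmnl2 at 0.04 (0.916), and none of these 4 was called.

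Other values moved with the groups. In the platelet comparison, the 16 platelet markers took 0.0445% ± 0.00242 of counts with activated and 0.026% ± 0.00208 with resting platelets (SD, n = 4 each; exact two-sided permutation p = 0.0286, the smallest 70 arrangements allow; adjusted p 0.0571 over 6 lists). With no platelets added, the same platelet markers took 0.0228% ± 0.00224 with vehicle and 0.023% ± 0.00129 with thrombin. Erythroid markers took 0.00106% with activated and 0.000208% with resting platelets (exact permutation p 0.0286, adjusted p 0.0571). Lymphocyte markers took 0.000509% with activated and 0.00152% with resting platelets (exact permutation p 0.0286, adjusted p 0.0571). Macrophage markers took 2.15% with activated and 2.07% with resting platelets (exact p 0.514). In bulk samples, fewer cells of a type and less RNA per cell cannot be told apart. The part of platelet, erythroid or lymphocyte RNA in the member values was not tested. The log2 change also went with transcript GC content across 14588 genes, as a description over genes of the same libraries, with Spearman rho -0.443 for thrombin minus vehicle and 0.205 for activated minus resting platelets. Tmco4 and Cbx6, both lower with thrombin, had the highest GC of the 8 genes with a value (57.9% and 54.9%), and Stam2, higher with thrombin, the lowest (42.3%). Zfp422 and Cnbp, lower with thrombin, were at 43.6% and 44.9%. With a GC correction and the replicate block together, thrombin minus vehicle was -0.34 for Tmco4, 0.14 for Stam2 and -0.42 for both Cnbp and Zfp422, and none of the 9 genes changed sign in either comparison. In that fit the platelet calls were as above apart from Stam2 (-0.08, edgeR adjusted p 0.057), while 33.8% of all genes were called.

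Patterns over the 16 libraries, each replicate number centred on its own mean, were compared by Pearson r of log2 CPM, as a description. The thrombin and vehicle libraries, which chose the 9 genes, are among the 16. The choice therefore favours high r among the 9 and with other genes that differ with thrombin. Among genes outside the 9, the one most like Zfp143 was Slc39a10, a zinc importer (r 0.959), at a mean of 191 CPM with thrombin, 60.1 CPM with vehicle, 170 CPM with activated platelets and 65.7 CPM with resting platelets. Slc19a2 was most like Rps27l (0.946) and then Slc39a10 (0.937). Mt1, which encodes a metallothionein, a metal-binding protein, was among the 2 genes most like Zfp422 (0.952) and Cbx6 (0.944). Mt1 averaged 17.1 CPM with thrombin, 42.8 with vehicle, 13.7 with activated platelets and 36.5 with resting platelets. Zkscan17, a zinc finger gene, was the other for both (0.942 and 0.955). Stam2 was most like its paralog Stam (0.949), at 46.9 CPM with thrombin, 41.5 with vehicle, 40.6 with activated platelets and 44.5 with resting platelets. The next like genes were Ddias for Zfp143 (0.924), Oard1 (0.87) and Tdrkh (0.867) for Plcxd2, Mast3 (0.963) and Selenow (0.929) for Klhl17, Fgd3 (0.96) and Ywhag (0.931) for Cnbp, Ssbp3 (0.95) and Lrfn4 (0.945) for Tmco4, and Abl2 (0.943) for Stam2. Among the 9 themselves, Tmco4 went with Cbx6 (0.942), Zfp422 (0.941) and Klhl17 (0.907). Cbx6 went with Klhl17 (0.931) and Zfp422 (0.902), and against Slc19a2 (-0.939). Slc19a2 went with Zfp143 (0.894).

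**Figure D3:**
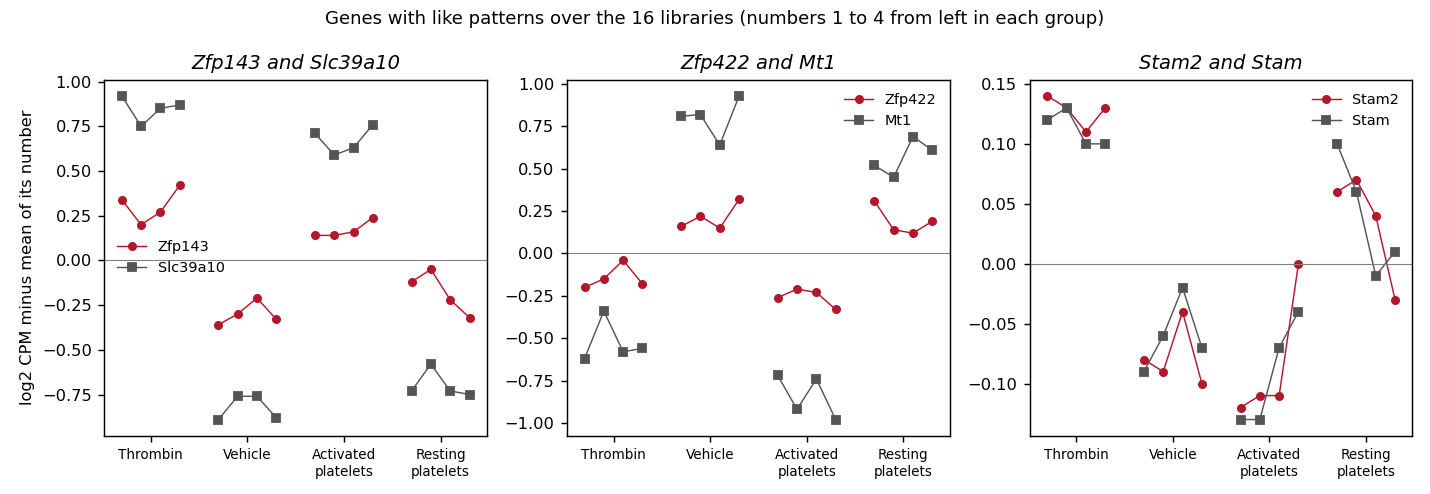
Log2 CPM minus the mean of its replicate number in each library, grouped by treatment, for Zfp143 with Slc39a10, Zfp422 with Mt1, and Stam2 with Stam. Each pair of lines follows the same order of groups, with r of 0.959, 0.952 and 0.949 over 16 libraries.

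Relatives and partners of 7 of the genes were examined in 7 lists with 99 tested genes. For thrombin against vehicle 1 of the 99 was called (1.01%, against 0.288% of all genes), Cul3, the scaffold of the ligase that BTB-kelch adaptors serve, at 133 ± 3.69 CPM with thrombin and 115 ± 1.51 CPM with vehicle (log2 difference 0.20 ± 0.04, edgeR adjusted p 0.0404). No list gene was called in that comparison without the low-count filter, in a fit of those groups alone, or with any library or replicate number left out. Stam, with a log2 difference of 0.17, was not called for thrombin (adjusted p 0.0974). It was called for activated against resting platelets, at -0.13 (edgeR adjusted p 0.035), and counts among the ESCRT list calls below. For activated against resting platelets 18 of 99 were called (18.2%, against 15.8% of all genes), 8 higher and 10 lower. The largest share was in the ESCRT list, with 5 of 13, where Mvb12b and Vps37b, ESCRT-I subunits, were both 0.29 higher (adjusted p 0.00177 and 0.00846), and Usp8 and Stambpl1, deubiquitinases, fell by 0.20 and 0.24 (0.016 and 0.0207). In the CUL3 list 6 of 23 were called, with Enc1 0.59 higher (0.000295) while Klhl6 fell by 0.50 (0.0019). In the Polycomb list 2 of 17 were called: Rnf2, the catalytic subunit of PRC1, fell by 0.29 (0.000548), and Bmi1 fell by 0.19 (0.013). Of 11 thiamine genes 1 was called, Ogdh, a thiamine-dependent dehydrogenase subunit, 0.19 higher (0.00221). Stag2, a cohesin subunit, was the only call among 8 Zfp143 partners, and fell by 0.17 (0.0403). Sf1 (0.11, 0.0428) and Zcchc8 (-0.17, 0.0198) were called among 16 zinc knuckle genes, and Plcl2 (-0.17, 0.0373) among 11 phospholipase C genes. For resting platelets against vehicle, 5 of 99 were called against 3.39% of all genes: Enc1 (0.75) and Cul3 (0.21) higher, Cbx8 (-0.53), Plcl2 (-0.23) and Zcchc8 (-0.18) lower. With replicate number as a block, the list calls were 8 for thrombin (8.08%, against 8.23% of all genes), 34 for activated against resting platelets (34.3%, against 34.5%) and 24 for resting platelets against vehicle (24.2%, against 21.5%).

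**Figure D4:**
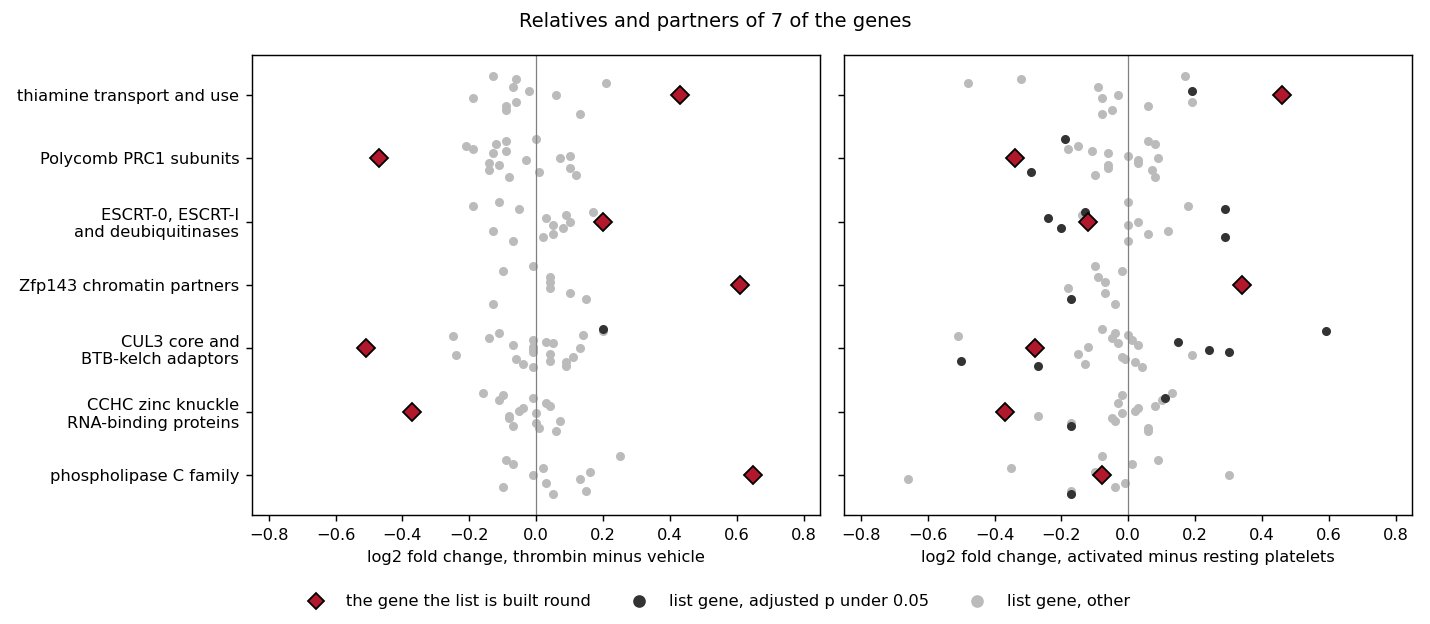
Log2 fold change of each listed relative or partner (grey or black points; black marks an edgeR adjusted p under 0.05) and of the gene the list is built round (red diamond), for thrombin minus vehicle at left and activated minus resting platelets at right. With thrombin 1 of 99 list genes is black, and with activated platelets 18 are.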

How the data were processed

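The deposited table holds estimated counts per gene, made by the authors with no normalization; 25.5% of the values above 0 were not whole, and rounding changed 0.00734% of counts. The authors used STAR 2.7.2b, cutadapt 2.5 and featureCounts 1.6.4 (Subread), per the submitters' processing notes, which name GRCm39 and mm10 as builds; how strand and multi-mapped reads were handled is not given in the sources used here. Libraries were placed in groups by title. The 9 genes, the gene lists and the tests were chosen with earlier results of these data known; other genes were named by rank of p or of correlation, or by position. Counts were filtered with filterByExpr by group (15610 of 46320 genes), TMM-scaled, and fitted with edgeR 4.0.16 (R 4.3.3; robust glmQLFit, quasi-likelihood test) on all 16 libraries, without a block. P-values are two-sided, Benjamini-Hochberg adjusted over all genes, at a threshold of 0.05. The design had assumed whole counts. The test was checked on simulated data. After group means were removed, same-number libraries correlated at 0.29 to 0.617 and other pairs at -0.436 to 0.253. The numbers were taken to pair the libraries, from the data. The main calls and shares come from the fit without a block, which leaves this pairing out. Promoter windows came from RefSeq (GRCm38.p6), with all 9 genes matched; the letters ACTACA replaced a longer Zfp143 core, which had matched in none of the 9; GC came from the longest GENCODE vM21 transcripts.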

Additional observations from a re-analysis of the deposited data

Results flagged for a closer look

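Slc19a2 in resting platelet library 3, at 16.7 CPM, lay far below the other libraries of its group, which were at 18.9, 19.1 and 18.9 CPM. This gap was 0.913 of the group's range. It was the only flag in 36 checks of 4 libraries, and chance flags about 1 in 20 such checks. Slc19a2 was called for activated against resting platelets with or without this library.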

How the results depend on the processing

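For activated against resting platelets, 8 of the 9 genes were called, and 5 to 8 when libraries were left out. Over all genes 15.8% were called, and 6.24% to 14.3% when libraries were left out. Zfp143, Slc19a2, Cnbp, Tmco4 and Zfp422 were called in each of the 21 alternatives; Stam2 was lost without the filter on low counts (adjusted p 0.0983), in the 2 groups fitted alone (0.103) and with the replicate block and GC correction (0.057), and Cbx6 in the 2 groups fitted alone (0.0629). The replicate block changed no other call among the 9, in fits that called far more genes. It called 34.5% of all genes for activated against resting platelets, and 33.8% together with GC correction. No alternative reversed a sign. Calls over all genes varied more. For thrombin against vehicle (45) they were 160 with DESeq2, 1285 with the replicate block, 407 with the block and GC correction, 11 with only those groups and 4 to 27 with libraries left out. For activated against resting platelets (2472) they were 5391 with the block, 5282 with the block and GC correction, and 972 to 2256. For resting platelets against vehicle (529) they were 335 without the filter, 953 with DESeq2, 3360 with the block, 2679 with the block and GC correction, 188 with only those groups and 58 to 550. For activated platelets against vehicle (4031) they were 6635 with the block, 6850 with the block and GC correction, and 2522 to 3727. In the 7 lists, calls for thrombin (1) were 0 without the filter, 2 with DESeq2, 8 with the block, 3 with the block and GC correction, 0 with only those groups and 0 with libraries left out. For activated against resting platelets (18) they were 34 with the block, 36 with the block and GC correction, and 8 to 17. For resting platelets against vehicle (5) they were 8 with DESeq2, 24 with the block, 15 with the block and GC correction, 2 with only those groups and 1 to 6. The difference in platelet marker share was 0.0169 to 0.0195 percentage points with a number left out, where the smallest exact p is 0.1. The causes were not tested. Replicate number 1 came from another animal than numbers 2 to 4. Standard errors on the log2 scale were 0.04 for Cnbp and Stam2, the most abundant of the 9, and 0.07 to 0.09 for the others. The thrombin dose is recorded in 2 ways.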
